A study of Mus musculus with 6 samples.

Results

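S100a1, S100a4, S100a6, S100a10, S100a11 and S100a13 are 6 genes for small calcium-binding proteins of the S100 family, described here without the calgranulins S100a8 and S100a9. They were taken by gene symbol, but the set was chosen from results of these same arrays, in which S100a4 was already known to differ between the muscles. All differences between pools given for them are therefore descriptions. Of 12488 probe sets on the array, 12 list 1 of these genes. Of these probe sets 11 list 1 gene only, and they cover 5 of the 6 genes. The single probe set of S100a11 also lists the pseudogenes S100a11-ps and Gm12854, so its signal is given as that of a shared probe set and is not counted as a gene.

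RNA was measured on 6 Affymetrix MGU74Av2 arrays, short-oligonucleotide arrays of mouse transcripts. The eccentric pool came from the tibialis anterior, the main muscle of the shin, taken 48 h after 50 contractions during which the muscle was lengthened. The isometric pool came from the same muscle 48 h after 50 contractions at fixed length. The control pool came from contralateral legs, stimulated only enough to measure isometric torque, so all 3 groups were stimulated to some degree, and the labels do not say which exercised animals those legs belonged to. Each pool combined total RNA of 4 animals and was split over 2 arrays, lettered A and B. Strain, sex and age are not given in the labels. A group is thus 1 biological sample, the SD over n = 2 arrays covers technical steps after pooling and not animals, and no p-value was computed. Whether a transcript was made by more cells of one type or at more copies per cell cannot be told apart in whole-muscle RNA.

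S100 proteins carry a pair of EF hands, helix-loop-helix folds that bind calcium, and most work as dimers that expose a binding face for a target protein when calcium rises. They differ in their targets and in the cells that make them. In muscle, S100a1 is a protein of the fibres, whereas S100a4, S100a6, S100a10 and S100a11 are best known from cells that divide, migrate or reseal their membranes, such as fibroblasts and macrophages.

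Of the 5 genes with a probe set of their own, all 5 were measured in each comparison, meaning that both arrays of 1 or both pools compared exceeded a floor signal of 120.8. S100a4, S100a6 and S100a10 were called higher in the eccentric than in the control pool, by 2-fold or more, and 0 were called lower. Among all 5682 genes measured in that comparison 5.16% were called higher and 1.06% lower by the same rule, which asks for a mean difference of at least 1 on the log2 scale and one sign in all 4 pairings of arrays. In the isometric against the control pool S100a4 alone was called higher and 0 were called lower, against 0.915% and 0.323% of 5574 genes. In the eccentric against the isometric pool it was again S100a4 alone, against 1.73% higher and 0.676% lower of 5622 genes. The median log2 difference of the 5 genes was 1.05, 0.44 and 0.61 in these comparisons, and that of all measured genes was -0.02, -0.01 and 0.02. Since the genes were chosen with these contrasts known, nothing is read from the gap between their counts and those shares.

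**Figure D1:**
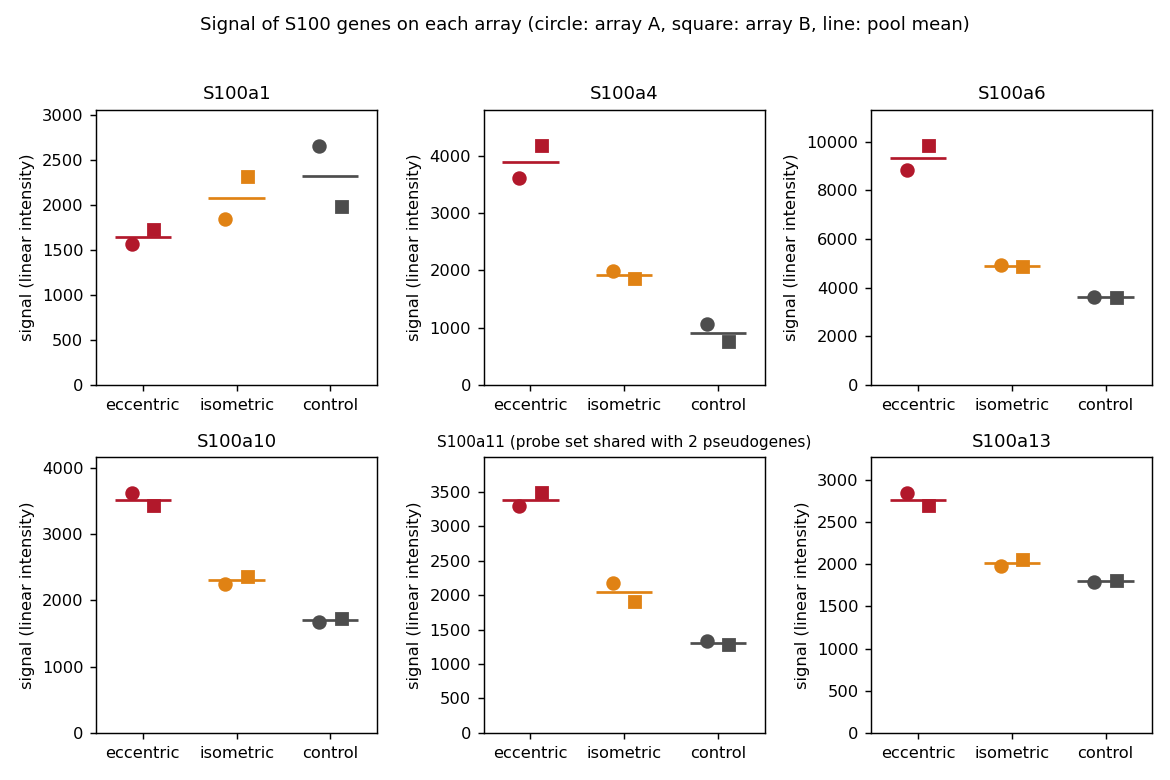
Linear signal (y axis, starting at 0) of the 6 S100 genes on the 2 arrays of the eccentric, isometric and control pools. Circles are array A, squares array B and lines the mean of the pool; S100a4 stands at 3614 and 4177 in the eccentric pool against 1059 and 760 in the control pool, and S100a1 is the 1 gene whose eccentric arrays lie below the control arrays.

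S100a4, also called metastasin, binds non-muscle myosin IIA and is used as a label of fibroblasts and some macrophages. Its signal was 3614 and 4177 on the eccentric arrays, 1998 and 1851 on the isometric arrays, and 1059 and 760 on the control arrays. The 3 pools did not overlap. The eccentric mean of 3896 ± 398 was 4.33-fold the control mean of 909 ± 212 (SD, n = 2 arrays of 1 pool each, folds from geometric means), a log2 difference of 2.11. The isometric mean of 1925 ± 104 was 2.14-fold that of the control pool, a log2 difference of 1.10. That call rested on the lower of the control arrays, since without control B the log2 difference was 0.86. The eccentric pool was 2.02-fold above the isometric pool, a log2 difference of 1.01 that fell below the 2-fold rule without eccentric B (0.91), without isometric B (0.96) or with median scaling (0.96).

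S100a6, calcyclin, is a protein of dividing and stressed cells that binds several annexins and the ubiquitin-pathway protein Cacybp. It had signals of 8832 and 9841 on the eccentric arrays, 4930 and 4860 on the isometric arrays, and 3639 and 3592 on the control arrays. The 2 arrays of the isometric and of the control pool differed by 0.02 on the log2 scale, so all 3 pools stand apart on these arrays. The eccentric pool, at 9336 ± 713, was 2.58-fold above the control pool, at 3616 ± 33.7, a log2 difference of 1.37. The isometric pool had 4895 ± 49.6, a log2 difference of 0.44 that missed the 2-fold rule although both isometric arrays lay above both control arrays. Between the eccentric and the isometric pool the log2 difference was 0.93, just short of the rule, and it passed without eccentric A (1.01) and with quantile normalization (1.06).

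S100a4 and S100a6 lie near each other on chromosome 3, with S100a5 as the 1 protein-coding gene between them. Their start regions are shown because both genes were called in the eccentric pool and lie close together. Each window runs from 250 bases before to 50 bases after the RefSeq start of transcription (GRCm38.p6, plus strand), at chr3:90603520-90603819 for S100a4 and chr3:90612644-90612943 for S100a6. Capitals would mark the letters TGANTCA, the site of the AP-1 factors Fos and Jun, and neither window holds them on either strand.

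S100a4: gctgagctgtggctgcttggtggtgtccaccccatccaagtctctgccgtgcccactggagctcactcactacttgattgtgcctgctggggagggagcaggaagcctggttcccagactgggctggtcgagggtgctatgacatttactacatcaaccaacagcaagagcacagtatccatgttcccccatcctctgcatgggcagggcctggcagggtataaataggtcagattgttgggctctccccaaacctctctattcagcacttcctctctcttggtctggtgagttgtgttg
S100a6: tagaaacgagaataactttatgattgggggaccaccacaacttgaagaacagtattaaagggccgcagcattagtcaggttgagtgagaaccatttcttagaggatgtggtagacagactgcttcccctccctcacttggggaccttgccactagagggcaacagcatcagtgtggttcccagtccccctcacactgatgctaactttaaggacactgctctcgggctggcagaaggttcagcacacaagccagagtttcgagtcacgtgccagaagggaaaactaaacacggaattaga

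S100a10, or p11, has lost calcium binding in its EF hands and forms a stable tetramer with annexin A2 (Anxa2) at the plasma membrane. On its brighter probe set the signal was 3611 and 3421 on the eccentric arrays, 2240 and 2357 on the isometric arrays, and 1678 and 1713 on the control arrays. The pools did not overlap, and the arrays of a pool differed by at most 0.08 on the log2 scale. The eccentric mean of 3516 ± 135 was 2.07-fold the control mean of 1695 ± 24.4, a log2 difference of 1.05, just inside the rule. The isometric mean of 2299 ± 82.7 differed from the control mean by 0.44 on the log2 scale. A second probe set was dim and did not show this order. It had 149 and 200 on the eccentric arrays, 122 and 150 on the isometric arrays, and 228 and 141 on the control arrays, so all 3 pools overlapped. With the log2 values of both probe sets averaged, the eccentric minus control difference was 0.50 and the call was lost. The isometric minus control difference was then 0.02.

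S100a11, calgizzarin, binds annexin A1 (Anxa1) and takes part in membrane resealing and keratinocyte growth control. The probe set that it shares with the 2 pseudogenes had 3291 and 3476 on the eccentric arrays, 2177 and 1903 on the isometric arrays, and 1331 and 1272 on the control arrays. The pools did not overlap. The eccentric mean of 3384 ± 131 was 2.60-fold the control mean of 1302 ± 41.7, a log2 difference of 1.38. The isometric mean of 2040 ± 193 differed from the control mean by 0.65 on the log2 scale and did not pass the rule.

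S100a11 lies next to S100a10 on chromosome 3, with 0 protein-coding genes between them. Its start region (GRCm38.p6, chr3:93520246-93520545, plus strand, the same window from the start site) is shown because it is the only one of the 5 start regions found for these genes that holds TGANTCA, in capitals, once with its first base 136 and once 38 bases before the start site. Of all 32851 RefSeq windows 7.81% hold these letters on either strand. S100a10 has no entry in the table of windows.

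S100a11: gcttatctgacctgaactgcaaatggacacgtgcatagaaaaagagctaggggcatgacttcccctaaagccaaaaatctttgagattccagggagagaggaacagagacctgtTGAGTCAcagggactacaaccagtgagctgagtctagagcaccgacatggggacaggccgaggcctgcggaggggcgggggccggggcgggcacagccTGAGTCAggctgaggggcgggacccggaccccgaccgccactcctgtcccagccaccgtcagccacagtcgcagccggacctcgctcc

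3 other motifs were searched on both strands in the 5 windows. The GC box, GGGCGG, was found 3 times in the S100a11 window, 2 of them within 52 bases of the start site, and in none of the other windows, against 35.7% of all windows. The E-box, CANNTG, the site of the myogenic factors among others, was found in the windows of S100a6 (2 matches), S100a11 (2) and S100a13 (1) but not in those of S100a1 and S100a4, against 72.3% of all windows. The STAT site, TTCNNNGAA, was found in none of the 5, against 8.30% of all windows. A match is a run of letters and not a measured binding site.

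S100a13 takes part in the release of growth factor Fgf1 and interleukin-1 alpha, proteins that leave the cell without a signal peptide. Its brightest probe set had 2840 and 2689 on the eccentric arrays, 1977 and 2054 on the isometric arrays, and 1784 and 1806 on the control arrays. The pools kept apart, yet the eccentric mean of 2765 ± 106 was only 1.54-fold the control mean of 1795 ± 15.9, a log2 difference of 0.62, and the isometric mean of 2016 ± 54.6 differed from the control mean by 0.17. The other 3 probe sets were also higher in the eccentric pool, by different amounts. The most different had 910 and 1038 on the eccentric arrays against 597 and 408 on the control arrays, a log2 difference of 0.98, with 470 and 566 on the isometric arrays, which overlapped the control arrays. A further one gave 0.36, and the dimmest lay above the floor on the eccentric arrays alone, at 135 and 128, which makes it at least 1.09-fold higher than the control pool.

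S100a1 is the S100 protein of heart and skeletal muscle fibres, where it binds the calcium release channel and the calcium pump of the sarcoplasmic reticulum. It was the 1 gene of the set with lower signals in the eccentric pool. The probe set used had 1568 and 1722 on the eccentric arrays, 1840 and 2312 on the isometric arrays, and 2657 and 1981 on the control arrays. Both eccentric arrays lay below the other 4, while the isometric and control arrays overlapped. The eccentric mean of 1645 ± 109 against the control mean of 2319 ± 478 gave a log2 difference of -0.48, and the isometric mean of 2076 ± 334 gave -0.15, neither of which passed the 2-fold rule. Without control A the eccentric difference was -0.27 and the isometric difference 0.06. The _f_at ending of this probe set's name marks it as one whose probes can match related sequences, and the other 2 probe sets of S100a1 lay below the floor on all 6 arrays.

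The highest S100a1 signals of the isometric and control pools were on isometric B and control A. The summed signal of 21 markers of fast and slow fibres was also highest on those 2 arrays, at 408933 and 399953, against 284757 to 329045 on the other 4. Probe sets for 18S ribosomal RNA were brightest there too, with geometric means of 23476 on isometric B and 15860 on control A against 1761 to 10403 on the others. The part of these array differences in the S100a1 values was not tested.

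S100a1 and S100a13 stand head to head, with start sites 105 bases apart and transcription leading away from the space between them. Their 2 start windows share 204 bases (GRCm38.p6, chr3:90514281-90514484), given on the plus strand, in the direction of S100a13. This stretch is shown because it holds both start sites and the space between them. Its ends reach past the start sites, 1 into each gene. S100a13 had higher and S100a1 lower signals in the eccentric pool than in the control pool. The stretch holds no TGANTCA.

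Shared start region of S100a1 and S100a13: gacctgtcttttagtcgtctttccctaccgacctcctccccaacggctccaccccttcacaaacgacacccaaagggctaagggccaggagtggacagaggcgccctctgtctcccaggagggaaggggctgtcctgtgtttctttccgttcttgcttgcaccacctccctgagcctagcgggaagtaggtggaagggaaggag

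**Figure D2:**
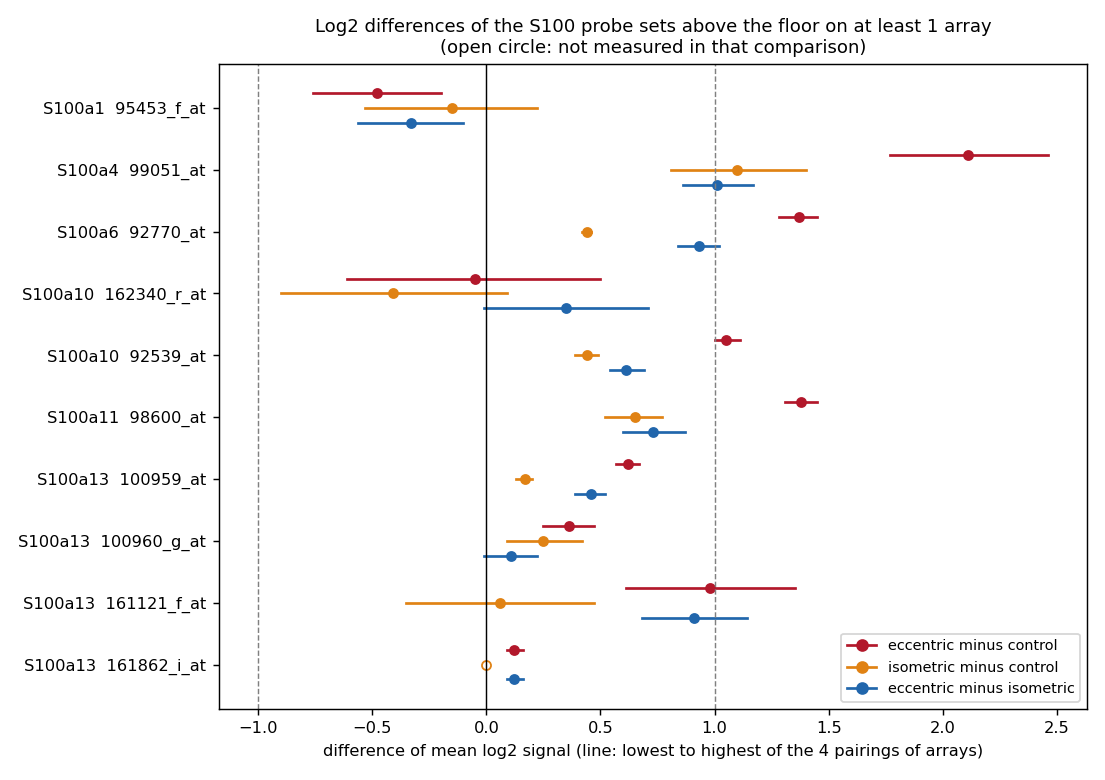
Difference of mean log2 signal (x axis) for each S100 probe set above the floor on at least 1 array, with lines from the lowest to the highest of the 4 pairings of arrays and dashed lines at 2-fold. S100a4 has the largest eccentric minus control difference (2.11), the dim second probe set of S100a10 spans 0 in all 3 comparisons, and the 4 probe sets of S100a13 run from 0.12 to 0.98.

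The members thus fall into an order by size that was the same against the control pool in both exercised pools for the brightest probe sets, apart from a tie in the isometric pool. S100a4 came first (2.11 and 1.10 on the log2 scale in the eccentric and isometric pools), then the shared S100a11 probe set (1.38 and 0.65) and S100a6 (1.37 and 0.44), then S100a10 (1.05 and 0.44), S100a13 (0.62 and 0.17) and S100a1 (-0.48 and -0.15). Neighbours in this order were not always separable. The ranges over pairings of the S100a11 probe set (1.31 to 1.45) and S100a6 (1.28 to 1.45) in the eccentric pool overlapped, as did those of S100a6 (0.42 to 0.46) and S100a10 (0.39 to 0.49) in the isometric pool, and those of S100a13 (0.13 to 0.20) and S100a1 (-0.53 to 0.22) in the isometric pool. The 2 comparisons share the control arrays. All 6 brightest probe sets had eccentric means farther from the control pool than isometric means.

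The S100 genes of chromosome 3 form a run. From S100a1 to S100a9 there are 12 protein-coding genes and all 12 are S100 genes. S100a11 and S100a10 follow after 56 more protein-coding genes. Among these 56 is S100a7l2, which has no probe set of its own. Neighbours in the run differed in size of change. S100a3, next but one to S100a4, had 272 and 312 on the eccentric arrays, 325 and 352 on the isometric arrays, and 104 and 270 on the control arrays, with log2 differences of 0.69 and 0.91 that were not called. Control A lay below the floor and was set to it, and the pairings of arrays ran from 0.01 to 1.37 in the eccentric and from 0.27 to 1.54 in the isometric pool, the lowest ones being against control B. S100a5, between S100a4 and S100a6, lay above the floor on 1 array. S100a14 had log2 differences of -0.17 and 0.25, with isometric A at 4129 and isometric B at 1276.

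**Figure D3:**
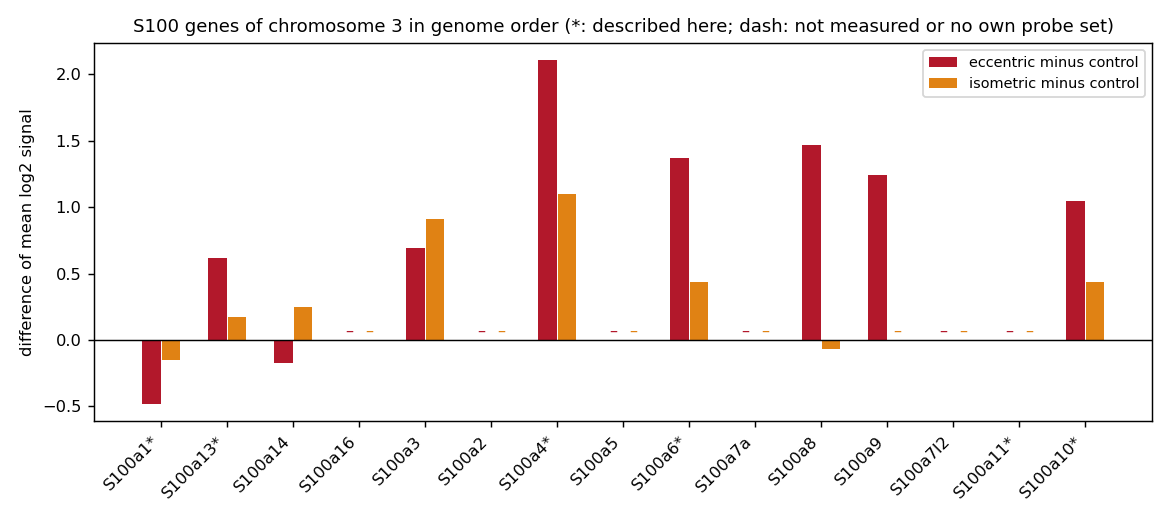
Difference of mean log2 signal (y axis) against the control pool for the S100 genes of chromosome 3 in genome order (x axis), eccentric left and isometric right; asterisks mark the genes described here and dashes genes that were not measured or have no probe set of their own. High eccentric values at S100a4 (2.11), S100a6 (1.37), S100a8 (1.47) and S100a9 (1.24, a lower bound) stand beside genes that were not measured.

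Of 10 other S100 genes listed for comparison 8 were on the array, and 4 were measured between the eccentric and the control pool, with 2 called higher, 0 lower and a median log2 difference of 0.96. The 2 were the calgranulins S100a8 and S100a9, which form the antimicrobial protein calprotectin of neutrophils and monocytes. S100a8 had 355 and 382 on the eccentric arrays, 132 and 104 on the isometric arrays, and 144 and 123 on the control arrays. S100a9 had 248 and 327 on the eccentric arrays and lay below the floor on all isometric and control arrays, so it was at least 2.36-fold higher in the eccentric pool than in either. In the isometric against the control pool S100a8 had a log2 difference of -0.07, where S100a4 had 1.10. S100b, the S100 protein of Schwann cells, lay below the floor on all 6 arrays.

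Annexins, the calcium-dependent membrane-binding proteins to which several S100 proteins attach, had a similar median. Of 7 measured annexins 4 were called higher in the eccentric pool than in the control pool and 0 lower, with a median log2 difference of 1.12. Anxa2, the partner of S100a10, had 6217 and 6164 on the eccentric arrays, 2551 and 3236 on the isometric arrays, and 1697 and 1683 on the control arrays, a 3.66-fold difference between the eccentric and the control pool. Anxa1, the partner of S100a11, was 2.17-fold higher at 2813 ± 52.7 against 1299 ± 76.7 on the probe set used. Another Anxa1 probe set was also called (log2 1.48) and a dim one was not (0.83). Anxa4 and Anxa5 were 2.59-fold and 2.33-fold higher. Anxa6 (0.21) and Anxa7 (0.00) were not called. In the isometric against the control pool 0 of 7 annexins were called on the probe sets used and the median was 0.40, while the other Anxa1 probe set called above had a log2 difference of 1.07 and passed the rule there too. Between the eccentric and the isometric pool Anxa2 was the 1 called, at 1.11, and without isometric A it was 0.94.

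Other known binding partners and receptors of S100 proteins had a median near that of all genes. Of 18 measured, 1 was called higher in the eccentric pool than in the control pool, 0 were lower, 17 did not pass, and the median was -0.06. The 1 was Atp2a2, the calcium pump of slow and cardiac muscle, at 1.06 on a dim probe set and 0.87 without control A. Ahnak, a giant scaffold protein that binds the S100a10 and Anxa2 complex, had 7608 ± 234 against 4743 ± 215, a log2 difference of 0.68. Myh9, the heavy chain of non-muscle myosin IIA that S100a4 binds, had 1800 ± 290 against 1313 ± 21.7, at 0.45. Cacybp, the partner of S100a6, was at -0.39 and Fgf1 at -0.52. Ryr1, the calcium release channel of skeletal muscle, was at -0.30 and Atp2a1, the fast-fibre calcium pump, at -0.28. The receptor gene Ager was not measured in any comparison. It had 107 and 103 on the eccentric arrays, 123 and 112 on the isometric arrays, and 230 and 103 on the control arrays. Bsg, a surface receptor reported for calgranulins, was at -0.71. In the isometric against the control pool 0 of 17 were called, with a median of -0.06.

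EF-hand genes outside the family were also near the level of all genes. Of 23 measured between the eccentric and the control pool 2 were called higher, 0 lower, and the median was 0.10. They were Lcp1, an actin-bundling protein of leukocytes (1.63), and Rcn1, a calcium-binding protein of the endoplasmic reticulum (1.12). These counts take the brightest probe set of a gene. Capn3, at -0.54 on that probe set, passed the rule as lower on 2 dimmer ones, at -1.0 and -1.02. In the isometric against the control pool 0 of 24 were called and the median was 0.07.

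**Figure D4:**
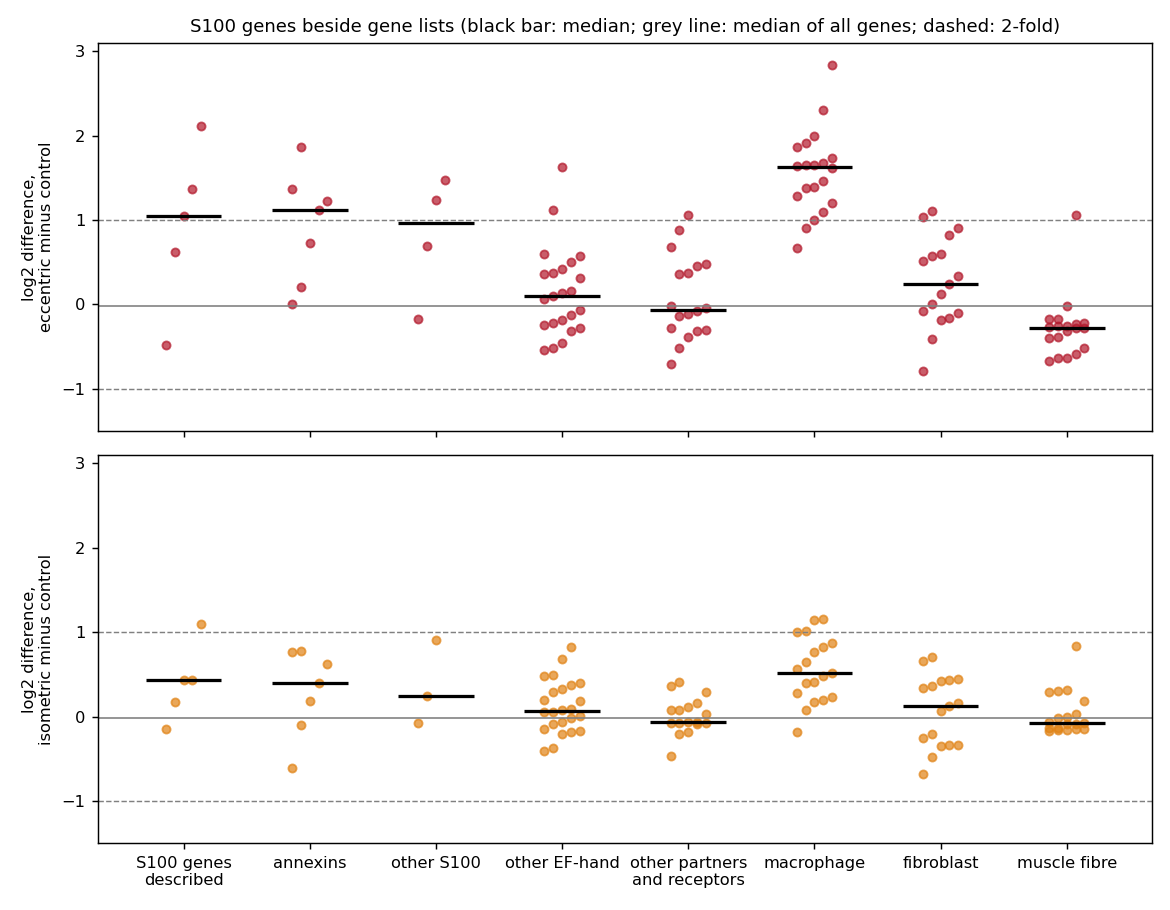
Difference of mean log2 signal (y axis) of measured genes against the control pool, eccentric above and isometric below, for the S100 genes described here and 7 gene lists. Black bars are medians, the grey line is the median of all genes and dashed lines mark 2-fold; the S100 genes have medians of 1.05 and 0.44, annexins 1.12 and 0.40, macrophage markers 1.63 and 0.52, and muscle fibre markers -0.28 and -0.07.

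The summed signal of macrophage and monocyte markers was highest in the eccentric and lowest in the control pool, as that of S100a4 was. Of 24 listed 23 were on the array, and the sum was 42818 to 42868 on the eccentric arrays, 23126 to 24300 on the isometric arrays and 14661 to 15237 on the control arrays. Of 20 measured between the eccentric and the control pool 17 were called higher and 0 lower, with a median of 1.63, and of 19 measured between the isometric and the control pool 4 were called higher, with a median of 0.52. Of these Msr1, Lgals3 and Cd68 lost the call when 1 array was left out (lowest values 0.85, 0.87 and 0.72) and Lyz2 did not. The other 15 did not pass, and of the 19 measured 18 had a log2 difference above 0, the exception being Fcgr1 at -0.18. A dimmer Msr1 probe set was not measured in this comparison. It had 90.8 and 89.7 on the isometric arrays and 154 and 74.7 on the control arrays. Cd53 (2.83) and Ccr2 (2.30), surface proteins of leukocytes and monocytes, had the largest differences in the eccentric pool. The counts of this list take the brightest probe set of a gene. In the eccentric against the control pool, dimmer probe sets of Laptm5 (1.54), Msr1 (at least 0.90) and Fcgr1 (at least 0.74) were higher. Those of C1qb (-0.62) and Csf1r (-0.28) were lower. The C1qb probe set had 765 and 919 on the eccentric arrays against 1054 and 1586 on the control arrays, without overlap. None of the 23 markers was at 0 on any array. Fcer1g, Itgam, Aif1 and Clec4d were under the floor on both control arrays, as Fcgr3 and Aif1 were on both eccentric arrays. Their part in the S100 differences was not tested.

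Lists for other cells differed less. Fibroblast markers summed to 43052 to 45219 on the eccentric, 42283 to 46433 on the isometric and 43698 to 43970 on the control arrays. In the eccentric against the control pool 2 of 17 were called higher (Mfap5, 1.11, and Thy1, 1.04), with a median of 0.24. Of the 17, 11 had a difference above 0, and the values ran from -0.79 to 1.11. The sums weigh bright genes most and do not stand for each marker. Without control A Mfap5 was at 0.85, and without eccentric A Thy1 was at 0.98. A dimmer Mfap5 probe set was at 0.11, and its eccentric and control arrays overlapped. Col3a1 and Fbln1 were at 0.57 and -0.16 on the probe sets used. On 1 dimmer probe set each, at 1.04 and 1.03, they passed the rule as higher. Muscle fibre markers, with 21 on the array, had a median of -0.28 in the eccentric pool, with Atp2a2 called higher and 0 lower. Endothelial and smooth muscle markers had a median of -0.03 with 0 of 14 called. Neutrophil markers had a median of -0.08, and S100a8 and S100a9 were the 2 of 7 called higher. The neutrophil-restricted Ly6g and Ngp lay below the floor in all 3 pools. The lymphocyte, adipocyte, red blood cell and Schwann cell lists had 0 members called between these pools and medians of -0.29, -0.09, -0.17 and -0.15. Satellite cell and myoblast markers had a median of 0.22 with Myog called higher (1.09, and 0.81 without eccentric A). In the isometric against the control pool the medians of these lists lay between -0.47 for lymphocytes and 0.17 for Schwann cells, with Egr2 called higher and Csf3r and Cd4 called lower. Both lower calls ended with 1 array left out, Csf3r at -0.48 without isometric B against -1.09, and Cd4 at -0.79 without control A against -1.36.

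RNA integrity was read from beta-actin, whose 3' probe set was set against its 5' probe set, and this ratio followed the order of the pools. On the log2 scale it was 0.43 and 0.45 on the eccentric arrays, 0.14 and 0.27 on the isometric arrays, and 0.01 and 0.07 on the control arrays. The same ratio for Gapdh did not follow that order, with 0.12 and 0.13 on the eccentric arrays, -0.07 and 0.27 on the isometric arrays, and -0.05 and -0.07 on the control arrays. The part of RNA integrity in the S100 differences was not tested.

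Across the 4838 genes that exceeded the floor on every array, the 3 with the pattern nearest to each S100 gene were found by the root mean square difference of log2 signals, each centred on its own mean over the 6 arrays. For S100a4 these were the chemokine Ccl7 (0.117), the myeloid adaptor Tyrobp (0.165) and the scavenger receptor Stab1 (0.178). Ccl7 had 970 and 953 on the eccentric arrays, 468 and 469 on the isometric arrays, and 306 and 183 on the control arrays. For S100a6 they were Csf1r, the receptor for the macrophage growth factor (0.055), Faap20 (0.071) and the progranulin gene Grn (0.078). A dimmer Csf1r probe set, above the floor on all 6 arrays, did not show this pattern. Its eccentric minus control difference was -0.28, with overlapping arrays. For S100a10 they were Srrt (0.058), the hypoxia factor Hif1a (0.058) and the MHC class I gene H2-D1 (0.060). For S100a13 they were Ahnak (0.045), Nras (0.049) and the actin-capping subunit Capza1 (0.050). For S100a1 they were the muscle chloride channel Clcn1 (0.052), the elongation factor Eef1a2 (0.058) and Bckdha (0.065). Clcn1 had 1854 and 1959 on the eccentric arrays, 2073 and 2471 on the isometric arrays, and 2842 and 2177 on the control arrays, with isometric B and control A the brightest of their pools as for S100a1.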

How the data were processed

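Signals of 12488 probe sets on 6 arrays were used. As deposited, each probe set has a linear intensity on each array, made by the authors. How background was corrected, and with which software, is not given in the sources used here. From the values, the arrays had equal trimmed means (500.3 after removal of 2% at each end), so each gene is measured relative to the rest of its array. Array medians were 187 to 197, and 59.2% to 61.2% of probe sets per array lay above the floor. With 2 arrays a pool, their number limits precision.

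Arrays were scaled to one trimmed mean, floored at the 40th percentile (120.8) and log2 transformed. By the platform annotation, 10833 probe sets list 1 gene, 396 list several, 1193 list none and 66 are controls. Gene IDs of 10817 were found in RefSeq GRCm38.p6, which changed 0 symbols. A gene was represented by its brightest probe set (8251 genes). Both arrays of a group carry 1 RNA pool, so a size rule without a p-value was used, called when means differ at least 2-fold with one sign in all 4 pairings. Where a pool lay below the floor the fold is a lower bound. The members and lists were chosen with earlier results of these data known. The genes named are all probe sets of the members, the 3 nearest patterns of each, up to 4 called genes of a list in each comparison, and any listed S100 gene, annexin or partner on the array. Markers named for lying under the floor and Fcgr1 in the isometric pool were chosen after their values were seen. So were Capn3, Col3a1, Fbln1 and the dimmer probe sets of macrophage markers. Alternatives changed floor, scaling, filter, threshold, probe sets and arrays. Promoter windows are from RefSeq (GRCm38.p6). Python 3.11.15, numpy 2.4.6, pandas 2.3.3 and matplotlib 3.10.9 were used.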

Additional observations from a re-analysis of the deposited data

How the results depend on the processing

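The 6 brightest probe sets gave 180 alternative log2 differences, of which 178 kept the sign of the reported value. The 2 exceptions were S100a1 in the isometric against the control pool, at 0.01 without isometric A and 0.06 without control A. Not all of these values were free to move. The 6 probe sets exceeded the floor on every array, so a lower floor or none left them as they were. Averaging could not alter S100a4, S100a6 or the shared S100a11 probe set, which have 1 probe set each. For S100a1 it could shrink the difference but not turn its sign, since the other 2 probe sets lay below the floor on every array. Under averaging the S100a10 difference between the isometric and the control pool kept its sign at 0.02. Leaving out control A together with isometric B repeated a single omission in both comparisons with the eccentric pool. The array letter as a replicate block, with agreement asked of the A pair and the B pair only, gave 353, 69 and 135 called genes in the eccentric against control, isometric against control and eccentric against isometric comparisons, as in the reported analysis, and the same 3, 1 and 1 S100 genes. That rule keeps the mean difference and asks for fewer agreements, so it could add calls but not lose any. Omitting the filter on low signals could not change a count, since the rule of one sign in all pairings already bars every gene that fails the filter.

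Counts of all genes moved with the floor. They were 617, 268 and 337 with a floor at the 20th percentile, 930, 529 and 575 without a floor, and 1103, 346 and 711 at a 1.5-fold threshold. Averaging probe sets gave 45 in the isometric against the control pool. With 1 array left out the counts were 82 (without control A) to 206 (without control B) for that comparison and 176 (without eccentric A) to 219 (without isometric A) for the eccentric against the isometric pool. Leaving out control A together with isometric B gave 136 and 204. Higher and lower calls between the eccentric and the control pool split 501 to 429 without a floor, against 293 to 60 as reported.

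Between the eccentric and the isometric pool the number of S100 genes called was 0 with median scaling, 2 with quantile normalization, 3 at 1.5-fold, 0 to 2 with 1 array left out, and 0 after leaving out control A together with isometric B. In the isometric against the control pool it was 0 to 1 with 1 array left out, 0 being without control B. Between the eccentric and the control pool S100a4, S100a6 and S100a10 were called under every alternative except averaged probe sets, which ended the call of S100a10. Of these alternatives, the floor, filter, 1.5-fold and replicate block settings could not end a call of these genes. With 1 pool per group the arrays cannot show differences between animals.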
